A study of Mus musculus with 54 samples.

Results

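The troponin genes of the mouse were followed through the differentiation of myogenic progenitors in 6 cell lines. The family was taken by name as the genes of the 3 troponin subunits. These are Tnnc1 and Tnnc2 (troponin C), Tnni1, Tnni2 and Tnni3 (troponin I), and Tnnt1, Tnnt2 and Tnnt3 (troponin T). Their NCBI gene numbers were looked up in all 27 tables of the series. These 8 genes are among 19642 genes whose reads per library could be worked out, and none was left out. Of the 8, 7 had reads in all 54 libraries and 1, Tnni3, had between 0 and 8 reads in any library.

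The cells were H2K myogenic progenitors, a conditionally immortal myoblast line that divides in medium with γ-interferon and forms myotubes after serum is lowered. Wildtype progenitors were compared with EMD-/y progenitors, which lack emerin, a protein of the inner nuclear membrane that is mutated in Emery-Dreifuss muscular dystrophy. The other 4 lines were EMD-/y progenitors transduced with a lentivirus that carried wildtype emerin (+EMD) or a disease-causing form of emerin, S54F, Q133H or del9599, a short deletion named for the residues it removes. RNA was taken at day 0 (0 h), day 1 (24 h) and day 2 (48 h) of differentiation, with 3 libraries in each of the 18 groups. The 4 transduced lines share the EMD-/y background, the vector and selection in puromycin, which wildtype and EMD-/y cells did not have. The mutant lines were also plated more densely for RNA than wildtype and EMD-/y cells, and the density of +EMD cells is not given in the sources used here. A line that carries the vector alone was not analysed here, so the form of emerin, the vector, puromycin and plating cannot be told apart where a transduced line differs from wildtype.

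Troponin is the calcium switch of the thin filament. Troponin C binds calcium, troponin I holds back the interaction of actin with myosin, and troponin T ties the complex to tropomyosin. Each subunit has separate genes for different muscles. Tnnc1 serves slow and cardiac muscle and Tnnc2 fast muscle, Tnni1 is the slow, Tnni2 the fast and Tnni3 the cardiac troponin I, and Tnnt1 is the slow, Tnnt2 the cardiac and Tnnt3 the fast troponin T. Developing skeletal muscle is known to use Tnnt2 as well before the adult forms take over.

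In GRCm38 (mm10) 6 of the 8 genes lie in pairs of a troponin I and a troponin T gene. Tnni1 (chr1:135783033-135810989) and Tnnt2 (chr1:135836315-135852268) are 25.3 kb apart, Tnni2 (chr7:142441816-142444410) and Tnnt3 (chr7:142498771-142516213) are 54.4 kb apart, and Tnnt1 (chr7:4504569-4515975) and Tnni3 (chr7:4518305-4522718) are 2.33 kb apart. Tnnc1 (chr14:31208312-31211729) and Tnnc2 (chr2:164777161-164779734) stand alone. The closest pair holds Tnnt1, with at least 12268 normalised reads in each wildtype library of day 2, and Tnni3, with at most 2.33.

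The upstream sequences of both troponin C genes, of Tnnt2 and of Tnni3 are shown because the first 3 genes rose steeply in wildtype cells while Tnni3 stayed near 0. They are the 250 bases before a RefSeq transcript start (GRCm38.p6), written 5′ to 3′ on the gene's strand. Such a start can lie inside the span of the gene given above. Most of the Tnni3 window, its E box included, lies within the span of Tnni3. The last bases of the Tnnt2 window lie within the span of Tnnt2. Capitals mark an E box (CANNTG, the letters that myogenic basic helix-loop-helix factors are known to bind) or the MCAT core (CATTCC), each searched on both strands.
Tnnc1, chr14:31208062-31208311, plus strand: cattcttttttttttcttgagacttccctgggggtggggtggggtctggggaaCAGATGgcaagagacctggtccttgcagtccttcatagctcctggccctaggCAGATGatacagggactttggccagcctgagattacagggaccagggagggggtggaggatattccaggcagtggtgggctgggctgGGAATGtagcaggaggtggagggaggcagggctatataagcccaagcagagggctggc
Tnnc2, chr2:164779735-164779984, minus strand: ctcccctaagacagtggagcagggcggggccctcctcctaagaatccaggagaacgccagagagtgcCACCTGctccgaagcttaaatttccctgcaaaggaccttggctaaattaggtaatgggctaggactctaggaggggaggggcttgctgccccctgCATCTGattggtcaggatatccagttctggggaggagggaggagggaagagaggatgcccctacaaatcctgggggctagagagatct
Tnnt2, chr1:135836084-135836333, plus strand: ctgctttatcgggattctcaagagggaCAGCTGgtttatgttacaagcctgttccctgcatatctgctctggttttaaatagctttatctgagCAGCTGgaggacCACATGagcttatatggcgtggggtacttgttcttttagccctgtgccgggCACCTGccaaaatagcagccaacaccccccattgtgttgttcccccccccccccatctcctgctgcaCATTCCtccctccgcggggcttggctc
Tnni3, chr7:4522529-4522778, minus strand: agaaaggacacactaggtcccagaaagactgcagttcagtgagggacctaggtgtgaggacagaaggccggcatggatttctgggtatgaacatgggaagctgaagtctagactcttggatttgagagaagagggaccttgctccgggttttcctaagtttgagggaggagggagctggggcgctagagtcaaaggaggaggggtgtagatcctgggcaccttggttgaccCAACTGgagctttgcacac
The table of RefSeq starts held 8 windows of 6 members, and Tnni2 and Tnnt3 were not in it. All 8 windows, the one of Tnni3 included, held an E box, as did 66.2% of 32851 windows of the same length in the genome. The form CAGCTG, which is 1 kind of E box, was in 3 windows of the members (the one printed for Tnnt2 and both of Tnni1) and in 13.0% of all windows. CATTCC was in the printed windows of Tnnc1 and Tnnt2 and in 12.6% of all. The MEF2 consensus and the CArG box were found in 0 of the 8 windows and in 1.69% and 1.47% of all windows. The windows of Tnni1 overlap, so the E box form counted in both of them is 1 and the same site, and both lie within the span of Tnni1. The window of Tnnt2 that is not printed lies within the span of Tnnt2 and held 1 E box, with 0 matches to that form and 0 to the MCAT core. A match describes the letters of the window and says nothing of binding.

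Each library held between 15476441 and 19427618 reads. Values below are normalised read counts, meaning reads divided by a size factor (the median of ratios over all 54 libraries), unless they are said to be per kilobase. Per the study's methods, technical replicates were made of 2 biological replicates, so the p-values measure a spread that is partly technical. Even the closest pair of libraries in a group differed by more than sampling noise, which does not show its 2 libraries to be biological replicates. The library outside that pair carried more troponin mRNA than the other 2 of its group at day 0 in wildtype (median of 7 members 2.24-fold), EMD-/y (3.55-fold), S54F (1.58-fold), del9599 (1.34-fold) and Q133H (6.44-fold), and at day 2 in Q133H (4.66-fold). In the other groups it had between 0.56-fold (EMD-/y at day 1) and 1.44-fold (del9599 at day 1). Of 7 myogenic markers 6 had solved reads. Myod1 (4708 to 26124), Des (7215 to 73035), Cdh15 (2927 to 19664) and Chrna1 (4823 to 48873) were high in every library, while Myf5 (123.5 to 1601) and Pax7 (0.92 to 2406) fell low in some. The cardiac markers with reads summed to at most 269, with Nkx2-5, Nppa and Mybpc3 at or below 4.69 in every library and Gata4 and Myh6 reaching 149 and 131. Smooth muscle markers summed to between 752 and 4339, nearly all of it Smtn, and fibroblast markers to between 217 and 29448, mostly Col1a1. Emd stood between 1145.0 and 2051 in the wildtype libraries and at most at 2.90 in all others, +EMD included, so its mouse reads check the EMD-/y background and not the transgene. In these bulk samples, fewer cells of a type and less RNA per cell cannot be told apart.

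In wildtype cells all 3 subunits were already transcribed at day 0 and climbed steeply. Tnnc1 stood at 1439, 1448 and 4154 in the 3 libraries of day 0, at 11518, 16553 and 18827 at day 1 and at 65076, 65702 and 70182 at day 2. Tnnc2 stood at 858, 869.7 and 1708, then at 6295, 7335 and 8254, then at 34497, 36959 and 39329. For both troponin C genes the libraries of the 3 days did not overlap, although 1 library of day 0 was well above the other 2.

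The inhibitory subunit followed the same course. Tnni1 had 1434, 1434 and 3560.2 at day 0, 6348, 8535 and 10285 at day 1 and 40226, 42425 and 43726 at day 2. Tnni2 had 256, 263 and 620.3, 1724, 2298 and 2674 and 9027, 9924 and 11241 on the same days. Again no library of one day reached the next. Tnni3 had 0, 0 and 1.01 at day 0, 0 in all 3 libraries at day 1 and 1.11, 1.17 and 2.33 at day 2, which is 2 reads or fewer in any wildtype library.

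Troponin T was carried by all 3 genes. Tnnt1 had 989, 1032 and 1714 at day 0, 4338, 5519 and 6001 at day 1 and 12268, 12484 and 13852 at day 2. Tnnt2 had 2622, 2632 and 5743, 15986, 19758 and 23159 and 53482, 53513 and 56538. Tnnt3 had 1869.8, 1974 and 4311, 11773, 14588 and 16559 and 54956, 56066 and 60406. None of the 3 overlapped between days, and Tnnt1 ended lowest.

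**Figure D1:**
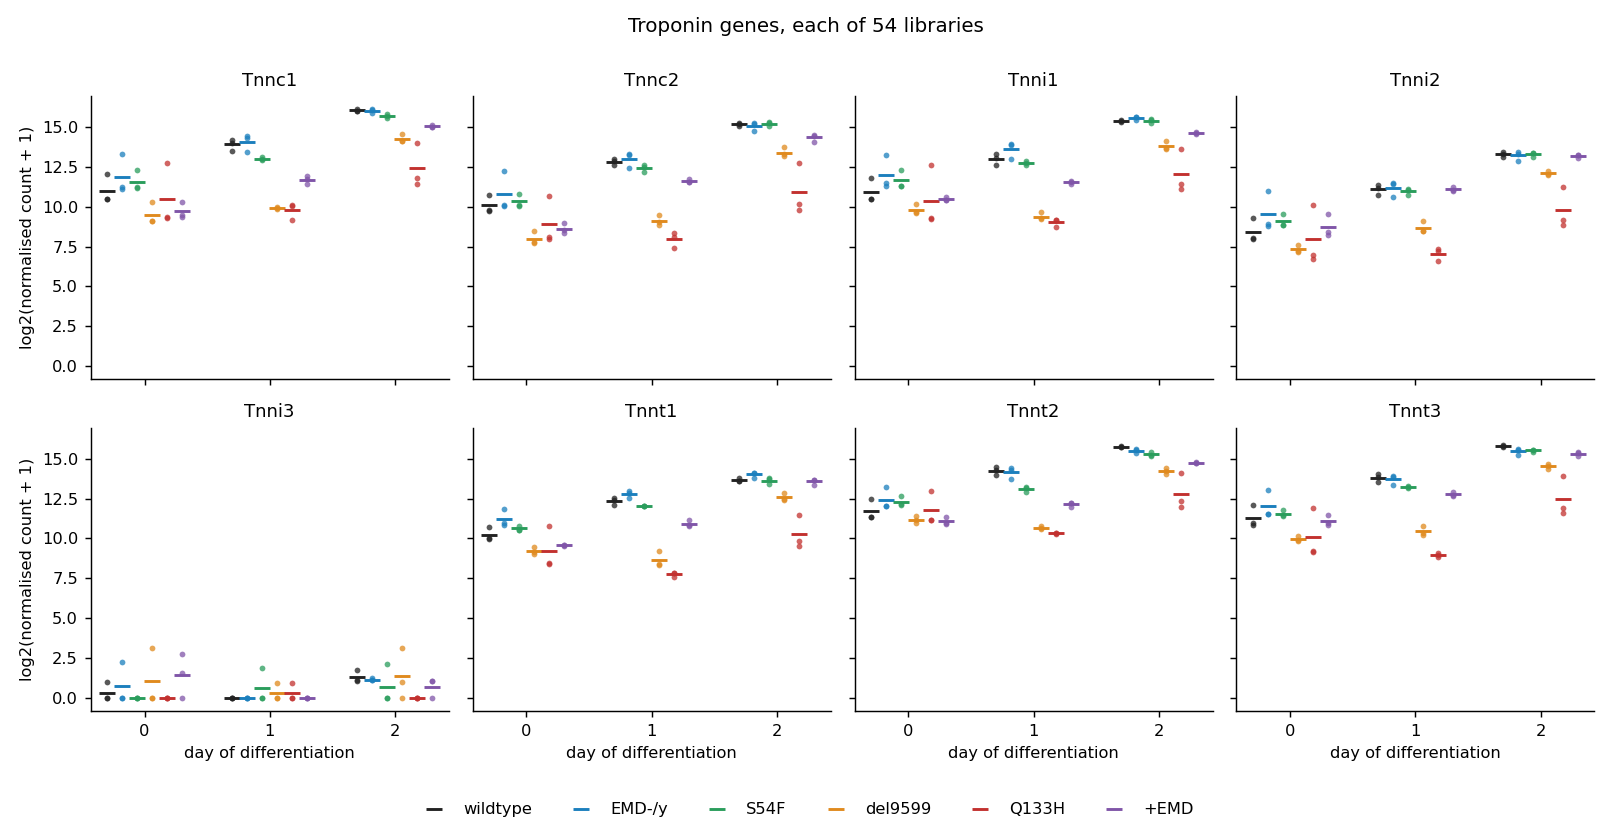
Level of each troponin gene as log2(normalised count + 1) against the day of differentiation, with 1 point for each of the 54 libraries, a bar at the mean of the 3 log2 values of a group and 1 colour for each line. Q133H and del9599 lie lowest at day 1, where Tnnc1 is at 582 to 1094 and 926 to 999 against at least 11518 in wildtype, and Tnni3 stays at or below 8 reads throughout.

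Per kilobase of listed transcript length, Tnnc1 was the highest member in wildtype at day 2, at 95287 ± 3961 (SD, n = 3). Tnnt3 (53959 ± 2719) and Tnnc2 (52380.4 ± 3427) came next and overlapped in their libraries. Below them stood Tnnt2 (45237 ± 1457), Tnni1 (38789.7 ± 1629), Tnnt1 (12094 ± 807) and Tnni2 (9867 ± 1092), each apart from its neighbour in that order. At day 0 the order was Tnnc1, Tnnt2, Tnnt3, Tnni1, Tnnc2, Tnnt1 and Tnni2, and only Tnni2 was apart from the gene above it. By these means per kilobase Tnnc1 was above the fast Tnnc2 and the slow Tnni1 above the fast Tnni2 on each day in wildtype, while the fast Tnnt3 led troponin T only at day 2.

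The first question was how the family moved from day to day. A gene was called when limma gave an adjusted p under 0.05 over all genes of the comparison and a change of at least 2-fold, and log2 fold changes (± SE) are on the scale of log2(normalised count + 1). In wildtype, 7 of 8 members rose from day 0 to day 1, against 10.9% of all genes that rose. Tnnc1 rose 7.54-fold (log2 2.92 ± 0.41, adjusted p = 0.00115), the largest of the 7, and Tnni1 rose 4.29-fold, the smallest (log2 2.10 ± 0.36). The median of the 7 was 2.53 on the log2 scale against 0.00 over all genes. From day 1 to day 2 the same 7 rose again, against 7.04% of all genes. Tnni1 now rose most, 5.0-fold (log2 2.32 ± 0.16, adjusted p = 3.42e-05), and Tnnt1 least, 2.40-fold (log2 1.26 ± 0.12).

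Tnni3 also passed the thresholds from day 1 to day 2 in wildtype and EMD-/y and in the contrast of Q133H with wildtype at day 2. Each of these calls rests on 1 or 2 reads per library against 0, at or under the floor of 3 reads, so no fold is given, and the wildtype and EMD-/y calls were lost without any of 3 libraries each (adjusted p between 0.054 and 0.0773). The counts below name Tnni3 wherever it is among them.

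EMD-/y cells rose in both steps. Their Tnnc1 stood at 2198, 2376 and 10032 at day 0, 11206, 19924 and 21838 at day 1 and 58711, 68278 and 70671 at day 2. Of the 8 members, 6 rose from day 0 to day 1 (10.2% of all genes rose), and Tnni2 had log2 1.63 ± 0.59 (adjusted p = 0.06). That count rests on day 0, where 1 library had 10032 counts of Tnnc1 and the other 2 had 2198 and 2376. Without the high library 7 members rose, and without either of the low ones, or either of the 2 day 1 libraries with the most Tnnc1, only Tnnt1 and Tnnt2 did. Tnni1 was lost as well without the day 1 library at 11206 (adjusted p = 0.0523). With the closest pair of libraries in each group averaged to 1 value, 0 were called. In the step to day 2, 7 members and Tnni3 rose (6.34% of all genes), Tnnc2 most (log2 2.03 ± 0.24) and Tnnt1 least (1.19 ± 0.13).

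S54F cells also rose in both steps. From day 0 to day 1, 6 members rose (8.37% of all genes), Tnnc2 most at 4.33-fold. Tnnt2 had 1.76-fold (log2 0.82 ± 0.17, adjusted p = 0.00701), under the 2-fold bound, with 4403, 4502 and 6597 counts at day 0 and 7757, 9226 and 9731 at day 1. Tnni1 (log2 1.12 ± 0.27) was not called without any of 4 libraries, the 2 lower ones of day 0 and those at 8226 and 8946 counts of Tnnc1 at day 1, and Tnnt2 was called at 1.01 without the high library of day 0. In the second step 7 members rose (8.16% of all genes), Tnnc2 by log2 2.72 ± 0.11 and Tnnt1 by 1.56 ± 0.09.

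del9599 cells changed little on the first day and rose steeply on the second. Tnnc1 had 552, 552 and 1269.5 counts at day 0, 926, 951 and 999 at day 1 and 17907, 18058 and 23644 at day 2. Tnni1 had 764, 797 and 1170.1, then 595, 619 and 795, then 12441, 13025 and 17463. Tnnt2 had 2032, 2234 and 2710.3, then 1521, 1579.9 and 1733, then 16994, 19530.3 and 21747. From day 0 to day 1 only Tnnc2 (log2 1.15 ± 0.23) and Tnni2 (1.37 ± 0.20) rose, against 6.38% of all genes, and Tnnc2 missed the 2-fold bound without 1 day 1 library (log2 0.98). Tnnt3 had 0.48 ± 0.16 (adjusted p = 0.0479) and Tnnc1 0.41 ± 0.29 (adjusted p = 0.316), neither of them called. Tnni1 (-0.41 ± 0.18, adjusted p = 0.111), Tnnt1 (-0.54 ± 0.23, adjusted p = 0.0995) and Tnnt2 (-0.50 ± 0.11, adjusted p = 0.00812) had negative values and were not called. In the second step 7 members rose (7.89% of all genes), between 10.6-fold for Tnni2 and 21.4-fold for Tnni1, with a median of 4.09 on the log2 scale against 0.02 over all genes.

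Q133H cells showed no call on the first day and a rise of uncertain size on the second. Tnnc1 had 631, 662 and 6855 at day 0, 582, 1033 and 1094 at day 1 and 2729.6, 3496 and 16430.3 at day 2. Tnnt3 had 574, 597 and 3779, then 460.3, 506 and 537, then 3108, 3813 and 15404. On day 0 and on day 2 a single library lay far above the other 2. With limma 0 of 8 members were called from day 0 to day 1 (9.02% of all genes were called in either direction), 2 had an unadjusted p under 0.05, both lower, and voom weights gave 0 as well. The log2 values ran from -1.44 for Tnnt1 to -0.69 for Tnnc1, and 4 members (Tnni1, Tnnt1, Tnnt2 and Tnnt3) were lower in a fit of all 54 libraries. Between day 1 and day 2, 7 members rose (3.54% of all genes), between 5.39-fold for Tnnt2 (adjusted p = 0.026) and 11-fold for Tnnt3 (adjusted p = 0.0157). All 7 were called without the high library of day 2, but 0 remained without the day 1 library at 1033 or 1094 counts of Tnnc1. Without the day 1 library at 582, or the day 2 library at 3496, Tnnt1 and Tnnt3 remained, and with the closest pairs averaged 0 did.

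+EMD cells rose in both steps. Tnnc1 had 665, 724 and 1257 at day 0, 2729.6, 3348 and 3962 at day 1 and 32953, 33317 and 35914 at day 2. From day 0 to day 1, 7 members rose (9.3% of all genes), Tnnc2 most at 7.99-fold (log2 3.0 ± 0.15) and Tnni1 and Tnnt2 least at 2.06-fold and 2.07-fold. Without the day 0 library at 665 counts of Tnnc1, Tnnt2 missed the 2-fold bound (log2 0.95) and Tnni3 was called lower on the reads of the other day 0 libraries. Without the day 0 library at 724, Tnni1 missed the bound (log2 0.997). In the second step 7 rose (9.7% of all genes), Tnnc1 most at 10.2-fold and Tnni2 least at 4.18-fold.

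**Figure D2:**
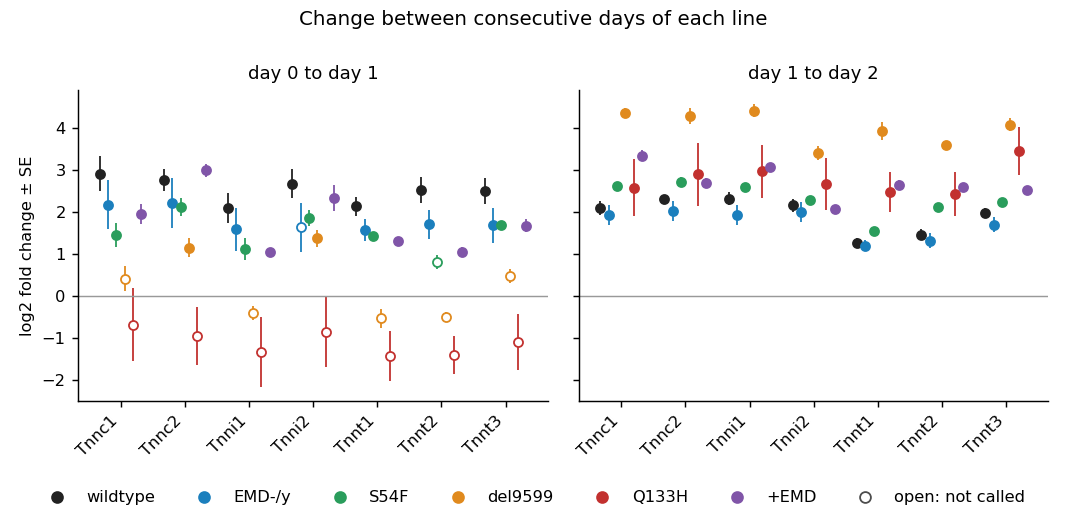
Log2 fold change of 7 troponin genes (vertical axis, ± SE) from day 0 to day 1 and from day 1 to day 2, by gene, with 1 colour for each line and open circles for values that were not called. On the left Q133H lies below 0 for all 7 genes and del9599 between -0.54 and 1.37, and on the right every line lies at or above 1.19.

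The next question was where the lines stood against wildtype on the same day. All lines were set against the same 3 wildtype libraries of a day, so their differences share the error of those libraries. For Q133H, del9599 and +EMD the gap was widest at day 1, by the median of the members. In Q133H, 7 of 8 members were lower than in wildtype (13.2% of all genes were lower), by 15.3-fold for Tnnt2 to 29.8-fold for Tnnc2. Tnnc2 had 172, 270.4 and 321 counts in Q133H against 6295, 7335 and 8254 in wildtype (log2 -4.90 ± 0.22, adjusted p = 7.19e-06). Tnnt3 had 460.3, 506 and 537 (log2 -4.85 ± 0.13, adjusted p = 8.69e-07). The libraries were far from overlapping for each of the 7.

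In del9599 the same 7 were lower at day 1 (10.5% of all genes were lower), by 5.37-fold for Tnni2 to 16.1-fold for Tnnc1. Tnnt1 had 325, 336 and 585 counts against 4338, 5519 and 6001 in wildtype (log2 -3.72 ± 0.23, adjusted p = 3.28e-05). The fast Tnni2, with 352, 359.7 and 551 against 1724, 2298 and 2674, was the least reduced (log2 -2.43 ± 0.21). Myogenic markers did not move alike, since of 6 measured, 2 were called higher and 2 lower in del9599, with a median of -0.70 on the log2 scale, and in Q133H 1 was higher and 5 lower, with a median of -1.79. Cardiac and fibroblast markers were lower as well in their sums at day 1. The summed cardiac markers stood at 141 to 179 in wildtype, 11.7 to 13.6 in del9599, 1.78 to 7.23 in Q133H and 3.65 to 11.3 in +EMD. The summed fibroblast markers stood at 4999 to 11139 in wildtype, 1178 to 1885 in del9599, 709 to 1062 in Q133H and 460 to 1841 in +EMD. By gene, the median log2 value of the fibroblast markers in +EMD was 0.23. The summed smooth muscle markers stood at 1827 to 1955 in wildtype, 1436 to 1603 in del9599 and 1233 to 1425 in Q133H. In +EMD the smooth muscle sum was higher, at 2236 to 2265. The part of any of these markers in the troponin values was not tested.

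In +EMD, 6 of the 7 members tested were lower at day 1 (9.28% of all genes were lower), from 2.03-fold for Tnnt3 to 4.63-fold for Tnnc1. Tnnt3 stood at the bound and missed it (log2 at or above -0.997) without any of 3 libraries, namely the wildtype library with the most Tnnc1 or either of the +EMD libraries with 3348 and 3962. Tnni2 stood apart from the rest of the family, with 2053, 2079 and 2415 in +EMD against 1724, 2298 and 2674 in wildtype (log2 -0.02 ± 0.15, adjusted p = 0.948). In S54F 1 member was lower (5.67% of all genes were lower). Tnnt2 fell 2.18-fold short of wildtype, with 7757, 9226 and 9731 against 15986, 19758 and 23159 (log2 -1.13 ± 0.14, adjusted p = 0.00112). Tnnc1 had log2 -0.89 ± 0.17 (adjusted p = 0.00619), under the 2-fold bound, and passed it at -1.09 without the wildtype library that had the least Tnnc1. In EMD-/y limma called 0 of 7 members tested (4.95% of all genes were called), 1 had an unadjusted p under 0.05 and voom weights called 0. The values ran from -0.11 ± 0.20 for Tnnt2 to 0.58 ± 0.27 for Tnni1.

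At day 2 the gap had narrowed in del9599 and +EMD. In del9599, 7 members were lower than in wildtype (8.17% of all genes were lower), from 2.08-fold for Tnnt1 (log2 -1.06 ± 0.11) to 3.38-fold for Tnnc2 (-1.76 ± 0.14). Tnnt1 missed the 2-fold bound (log2 -0.997 and -0.989) without the del9599 library at 17907 or at 18058 counts of Tnnc1. Tnnc1 had 17907, 18058 and 23644 counts in del9599 against 65076, 65702 and 70182 in wildtype. In Q133H, 7 members and Tnni3 were lower (13.6% of all genes were lower), from 7.71-fold for Tnnt2 (log2 -2.95 ± 0.53, adjusted p = 0.00343) to 19.6-fold for Tnnc2 (log2 -4.30 ± 0.73, adjusted p = 0.00283). Tnnc2 had 874, 1159 and 6843 counts in Q133H, and even the highest library was below all wildtype libraries.

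The other lines had 0 members called at day 2. In +EMD (16.7% of all genes called) the values ran from -0.996 for Tnnt2 to -0.08 ± 0.10 for Tnnt1, 5 members had an unadjusted p under 0.05, all lower, and voom weights called 0. Tnnt2 and Tnnc1 (log2 -0.98 ± 0.06, adjusted p = 1.62e-05) lay at the 2-fold bound. Both were called lower without the wildtype library at 65076 counts of Tnnc1 or the +EMD library at 35914, and Tnnt2 alone without the wildtype library at 65702. In S54F (10.2% called) 3 members had an unadjusted p under 0.05, all lower, and voom weights called 0, with Tnnt2 lowest at log2 -0.48 ± 0.08 and Tnnc2 at 0.01 ± 0.09. In EMD-/y (6.23% called) 1 member, Tnnt1 (log2 0.36 ± 0.09), had an unadjusted p under 0.05 on the higher side and 2 on the lower, and voom weights called 0.

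At day 0 fewer members were called, and the high library of several groups decided much of the count. In del9599, 3 members were lower than in wildtype (5.26% of all genes were lower). Tnnc2 had 209, 215 and 349 counts against 858, 869.7 and 1708 (log2 -2.09 ± 0.31, adjusted p = 0.00287), Tnnt1 had log2 -1.01 ± 0.22 and Tnnt3 -1.30 ± 0.30. Tnnc2 alone remained without the high wildtype library (4154 counts of Tnnc1) or without either of the 2 low del9599 libraries, and Tnnc1 joined (log2 -1.87) without the high del9599 library. In +EMD Tnnc2 alone was lower (9.23% of all genes were lower), at 319, 377 and 498 (log2 -1.46 ± 0.28, adjusted p = 0.00592). Tnni1 had -0.44 ± 0.33 (adjusted p = 0.337) and Tnni2 0.32 ± 0.44 (adjusted p = 0.59).

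In Q133H at day 0 limma called 0 members (12% of all genes were called), 0 had an unadjusted p under 0.05 and voom weights called 0. The Tnnc2 libraries were at 252, 277 and 1629.5. Without the highest of them, 5 members were called lower, namely Tnnt3 (log2 -2.08), Tnnc2 (-2.02), Tnnt1 (-1.79), Tnni1 (-1.62) and Tnni2 (-1.56), so that 1 library decided the call. In EMD-/y (5.5% called) limma called 0 members, 1 had an unadjusted p under 0.05, on the higher side, and voom weights called 0. The 7 log2 values lay between 0.70 and 1.11, and Tnnt1 (0.99 ± 0.31) was called higher at 1.24 without the high wildtype library (adjusted p = 0.0487). In S54F (8.98% called) limma and voom weights called 0, and 0 members had an unadjusted p under 0.05. Without that wildtype library Tnni2 was called higher (log2 1.07).

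**Figure D3:**
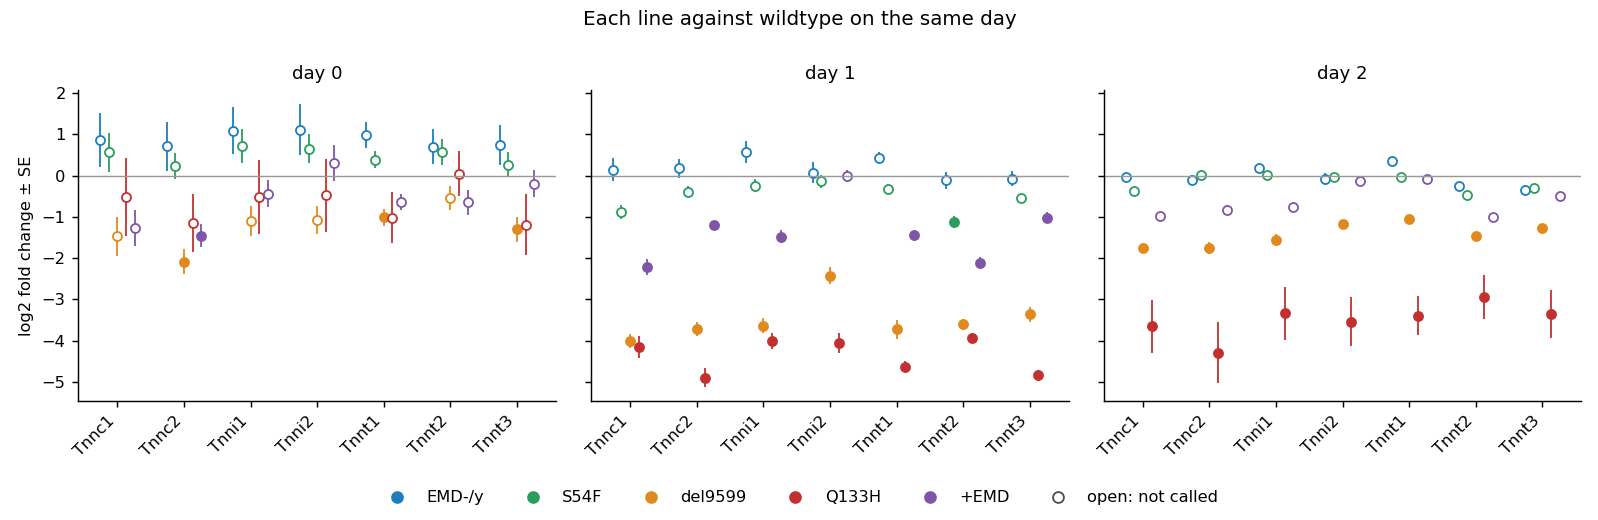
Log2 fold change of 7 troponin genes (vertical axis, ± SE) in each line against wildtype at days 0, 1 and 2, by gene, with filled circles for called values. At day 1 all Q133H and del9599 values lie at or below -2.42, and Tnni2 is the one gene at which +EMD sits at 0 (-0.02).

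Whether a line's step differed from the wildtype step was tested as a difference of the transitions, over the 12 libraries of 4 groups. For Q133H, 7 members had a lower step than in wildtype from day 0 to day 1 (8.43% of all genes did), Tnnt2 by -3.97 ± 0.62 on the log2 scale (adjusted p = 0.000906) and Tnni1 by -3.47 ± 1.02 (adjusted p = 0.0245). Tnnc1, Tnni1 and Tnni2 were not called without the wildtype library at 1439 counts of Tnnc1 at day 0 or at 18827 at day 1, which left 4. Tnnc1 and Tnni1 were not called without the wildtype libraries at 1448 and 16553 either, nor Tnnc1 without the Q133H library at 582. With the closest pair of libraries in each group averaged to 1 value, 1 of the 7 was called. In the second step only Tnni3 was called lower (3.71% of all genes had a lower step), on the reads given above. Tnnt1 (1.21 ± 0.53, adjusted p = 0.121) and Tnnt3 (1.46 ± 0.65, adjusted p = 0.12) were called higher only without the Q133H day 2 library at 2730 counts of Tnnc1 (log2 1.59 and 1.91).

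del9599 turned from a smaller to a larger step. From day 0 to day 1, 6 members had a lower step than in wildtype (5.69% of all genes did), Tnnt2 the lowest at -3.05 ± 0.36 (adjusted p = 0.000202), while Tnni2 at -1.33 ± 0.44 had an adjusted p of 0.0501. Tnni2 was called too without the wildtype library at 4154 counts of Tnnc1 (-1.74), the wildtype library at 11518 (-1.50) or the del9599 library at 926 (-1.53). With the closest pairs averaged, 2 of the 6 were called. In the second step 7 members rose more (7.03% of all genes had a higher step), from 1.21 ± 0.26 for Tnni2 to 2.63 ± 0.28 for Tnnt1 (adjusted p = 9.04e-05). Both contrasts use the day 1 libraries, with opposite signs.

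+EMD differed in fewer members. From day 0 to day 1 only Tnnt2 rose less (-1.47 ± 0.37, adjusted p = 0.018, 2.46% of all genes). That call was lost without the wildtype day 1 library at 18827 counts of Tnnc1 (adjusted p = 0.0502), and 5 members were called without the high wildtype library of day 0. Without the +EMD day 0 library at 665, Tnni3 was called as well, and with the closest pairs averaged 0 were. From day 1 to day 2, Tnnc1 (1.23 ± 0.23), Tnnt1 (1.36 ± 0.19) and Tnnt2 (1.11 ± 0.16) rose more than in wildtype, against 5.53% of all genes with a higher step, although Tnnt2 missed the 2-fold bound (0.99) without the wildtype day 1 library at 18827 and 1 member was called with the closest pairs averaged. The fast Tnni2 had -0.12 ± 0.20 (adjusted p = 0.699) and Tnnc2 0.36 ± 0.17 (adjusted p = 0.152).

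S54F had 1 difference, a lower step of Tnnt2 from day 0 to day 1 (-1.71 ± 0.39, adjusted p = 0.0173, 2.1% of all genes had a lower step). Without the high wildtype library of day 0 the members called were 5, with Tnnc1, Tnni1, Tnni2 and Tnnt3 added (log2 -1.97 to -1.21), and with the closest pairs averaged they were 0. From day 1 to day 2 limma called 0 members (2.34% of all genes), 3 had an unadjusted p under 0.05, all higher, and voom weights called 0. EMD-/y had 0 members called by limma in either step (0.207% and 0.31% of all genes), with 0 at an unadjusted p under 0.05 and 0 by voom weights. The values for Tnnc1 were -0.73 ± 0.80 and -0.17 ± 0.32.

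A second view asked which isoform supplied each subunit, as a share of its transcripts per length in each library. With 3 libraries against 3 the exact permutation test (two-sided) cannot go below 0.1, and 0.1 was the lowest p of the 75 comparisons with wildtype (0.16 after Benjamini-Hochberg), so no share passed a threshold. The libraries of a line and of wildtype are therefore described only by whether they overlapped. In 47 of the 75 comparisons they did not, with 24 higher and 23 lower than wildtype, so a lack of overlap was common. Tnni2, the fast troponin I, supplied 21.7, 22.3 and 22.4% of troponin I in wildtype at day 1. In +EMD at day 1 it supplied 41.6, 42.6 and 48.0%, and in del9599 37.7, 39.1 and 42.5%. Every library of both lines was well above wildtype.

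The day 2 shares of Tnni2 kept that order with smaller gaps. They were 19.3, 19.9 and 21.5% in wildtype, 27.3, 27.6 and 29.6% in +EMD and 23.0, 24.7 and 26.4% in del9599. EMD-/y lay below wildtype, at 16.5, 16.6 and 16.8% at day 1 and 15.5, 17.8 and 18.8% at day 2. Q133H overlapped wildtype at day 1 with 19.4, 21.7 and 23.0%, although its total troponin I was far lower. At day 2 the Q133H libraries were below wildtype, at 17.0, 18.5 and 18.7%.

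Troponin T divided the lines differently. Tnnt2 supplied 46.4, 46.6 and 47.5% of troponin T in wildtype at day 1. It supplied 59.9, 60.5 and 63.6% in Q133H and 25.9, 32.8 and 33.6% in +EMD, on opposite sides of wildtype with no overlap. S54F, at 33.8, 36.9 and 37.4%, was also below wildtype.

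The share of Tnnt2 was 56.5, 68.3 and 68.4% at day 0 and 46.1, 48.4 and 48.6% at day 2 in Q133H, and every Q133H library was above the wildtype libraries of its day. In del9599 it was 54.7, 56.3 and 57.0% at day 0 and 34.1, 36.5 and 39.1% at day 2, and in S54F 47.2, 48.5 and 52.1% and 34.1, 38.1 and 38.4%. With the same length for a gene on every day, the libraries of day 2 in these 3 lines were all below those of day 0, as they were in wildtype (43.5, 44.7 and 45.6% and 38.8, 41.2 and 42.0%), in EMD-/y (41.4, 42.8 and 43.1% and 38.5, 39.5 and 40.9%) and in +EMD (37.3, 38.9 and 41.0% and 29.8, 30.0 and 34.0%). The listed length of Tnnt2 was 1250 to 1298 bases at day 0 and 1191 to 1205 at day 2. A fixed length therefore raises its day 0 share relative to day 2. In EMD-/y the lowest day 0 share (41.4%) and the highest day 2 share (40.9%) are close. The listed lengths there were 1250 and 1194 bases, so the order in EMD-/y depends on the fixed length. The order was not tested with the lengths of each day. The shares of troponin T make up the whole, so a lower share of an isoform leaves more to the others. Tnnt3, the fast troponin T, went the opposite way to Tnnt2 in +EMD and Q133H at day 1. In +EMD Tnnt3 supplied 52.2, 53.2 and 57.6% at day 1 against 38.6, 39.0 and 39.1% in wildtype and 25.8, 27.6 and 27.9% in Q133H. In EMD-/y at day 1 both were below wildtype, Tnnt2 at 42.0 to 44.6% and Tnnt3 at 36.9 to 37.7%. Tnnt1, the slow form, was the smallest part in wildtype at day 2 with 10.5, 10.7 and 11.4%. It stood higher at day 2 in EMD-/y with 16.0, 16.2 and 16.3%. The same held in +EMD (14.8 to 16.5%), S54F (12.2 to 14.9%) and del9599 (12.6 to 13.8%), while Q133H was lower (8.2 to 10.1%).

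In troponin C the slow and cardiac Tnnc1 was ahead by the group mean in all 18 groups. Tnnc2 came closest in +EMD at day 1, where it supplied 43.5, 47.4 and 55.5% against 30.4, 30.6 and 35.3% in wildtype, with 1 library above the share of Tnnc1. Q133H went the other way at day 1 with 20.7, 22.6 and 22.8%, and at day 2 with 24.2, 24.9 and 29.3% against 34.4, 34.6 and 37.4%. S54F at day 2 had 41.1, 41.5 and 41.9%, above wildtype in every library.

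**Figure D4:**
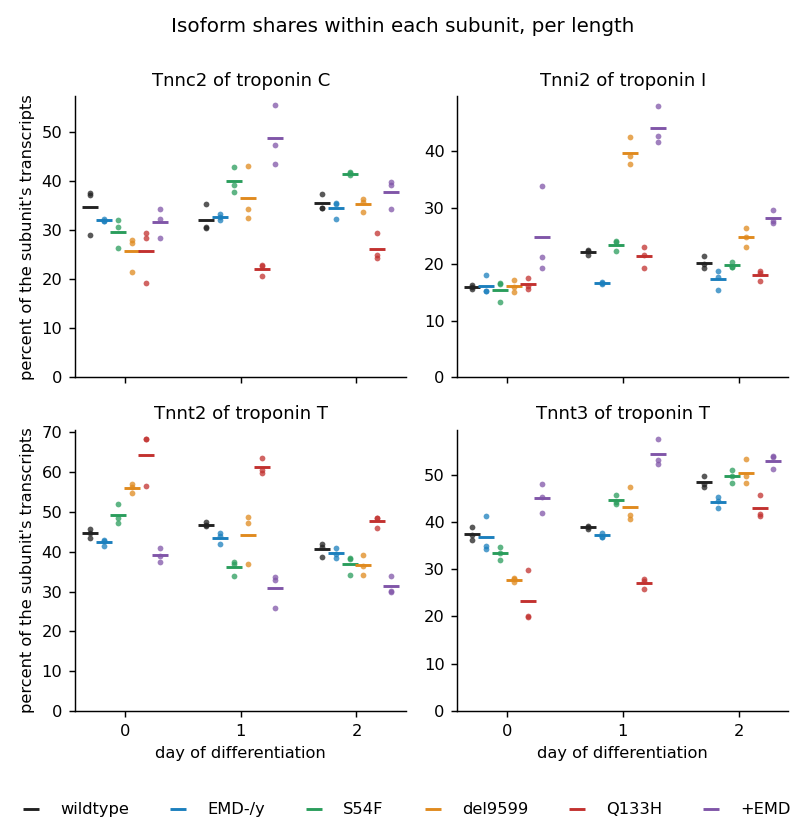
Share of 4 isoforms within their troponin subunit (vertical axis, percent of transcripts per length) against the day of differentiation, with 1 point for each library, a bar at the mean of 3 and 1 colour for each line. At day 1 Tnni2 is at 41.6% to 48.0% of troponin I in +EMD and 21.7% to 22.4% in wildtype, and Tnnt2 is at 59.9% to 63.6% of troponin T in Q133H and 46.4% to 47.5% in wildtype.

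A list of thin filament partners of troponin and other sarcomere genes was counted in the same comparisons. Of its 19 genes (actins, tropomyosins, nebulin, leiomodins, tropomodulins, myosin binding proteins and others), 17 could be tested. The myosin binding proteins Mybpc1, Mybpc2 and Mybph belong to the thick filament. Mybpc2 is also in the list of fast fibre genes below and Mybpc1 in the list of slow ones, so the lists share genes. The actins Acta1 and Actc1 had no solved reads, so no actin is in these counts. In wildtype 11 rose and 1 fell from day 0 to day 1 (median log2 1.75), and 12 rose and 0 fell from day 1 to day 2 (median 1.44). At day 1 against wildtype 13 were lower and 1 higher in Q133H (median -2.57), 12 lower in del9599 (-2.40), 11 lower in +EMD (-1.38), 4 lower in S54F (-0.45) and 0 in EMD-/y (0.03). The median over all genes lay between -0.03 and 0.01 in each of these comparisons.

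Among the genes of this list that rose most in wildtype were Mybph, a myosin binding protein (3.40 ± 0.34 from day 0 to day 1), and Tmod1, which caps the slow-growing end of actin filaments (3.23 ± 0.17). Nebl, a relative of nebulin, fell (-2.01 ± 0.66). From day 1 to day 2 the myosin binding proteins Mybpc2 (2.95 ± 0.50) and Mybpc1 (2.76 ± 0.29) rose most, Mybpc2 from a low mean of 4.3 to 42.3. At day 2 Tmod1 was far lower than in wildtype in Q133H (-6.94 ± 0.68), del9599 (-2.77 ± 0.23) and +EMD (-2.35 ± 0.18), and so was Mybpc1 (-5.26 ± 0.85, -2.33 ± 0.13 and -2.77 ± 0.08). Tpm3, a tropomyosin gene, was higher in Q133H (1.46 ± 0.17). Mybpc2 was higher in EMD-/y (1.73 ± 0.38) and +EMD (1.90 ± 0.39), and Tmod4 in EMD-/y (2.52 ± 0.44). Tmod4 was low in both groups, at a mean of 20.0 in EMD-/y against 2.7 in wildtype.

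Lists of 10 fast and 10 slow fibre genes gave the setting for the isoform shares. In wildtype 8 fast and 8 slow genes rose from day 0 to day 1 and 10 fast and 8 slow from day 1 to day 2. Casq1, the fast calsequestrin, and Myl2, the slow regulatory myosin light chain, led these rises (4.08 ± 0.56 and 3.84 ± 0.60 in the first step, 3.35 ± 0.21 and 3.46 ± 0.48 in the second). Myl2 started near 0, with means of 0.32 at day 0, 19.8 at day 1 and 199.8 at day 2. At day 1, 8 fast and 8 slow genes were lower in del9599, 9 and 9 in Q133H, and 6 and 7 in +EMD. At day 2 the fast myosin heavy chain Myh2 was lower in all 5 lines, from -3.84 ± 0.17 in EMD-/y to -8.22 ± 0.77 in Q133H, with -5.63 ± 0.09 in S54F, -6.33 ± 0.38 in del9599 and -7.45 ± 0.15 in +EMD.

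Other fibre genes did not move as one. Of the 10 fast genes at day 2, 2 were higher and 1 lower in EMD-/y (median log2 0.40), and 1 and 1 in S54F (0.02). Myh2 was the only fast gene called lower in these 2 lines. In +EMD 2 were higher and 2 lower (-0.27), in del9599 1 and 6 (-1.27) and in Q133H 0 and 8 (-4.05). Pvalb, the calcium buffer of fast fibres, was higher at day 2 in S54F (4.41 ± 0.30), EMD-/y (3.53 ± 0.35), +EMD (1.91 ± 0.36) and del9599 (1.05 ± 0.37). The slow myosin heavy chain Myh7 was higher in +EMD (1.35 ± 0.16) and EMD-/y (1.03 ± 0.16). Casq1 was lower in Q133H (-8.52 ± 0.34), del9599 (-4.87 ± 0.27) and +EMD (-2.63 ± 0.30), and Actn2, the α-actinin of the Z-disc, in Q133H (-5.62 ± 0.77), del9599 (-3.17 ± 0.20) and +EMD (-1.74 ± 0.11).

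Across the 18 group means the 7 expressed members ran closely together, with Pearson r between 0.942 (Tnni2 and Tnnt2) and 0.992 (Tnnc1 and Tnnt2) on log2 means, as a description over groups that share the differentiation course. Genes outside the family were as close. Mylpf, the fast regulatory light chain, had r = 0.994 with Tnnc1 and 0.992 with Tnnc2. Cacng6, a calcium channel subunit, had r = 0.992 with Tnni1. Hrc, a calcium-binding protein of the sarcoplasmic reticulum, had 0.993 with Tnnt2, and Sntb1, a syntrophin, 0.994 with Tnnt3. Only Tnni2 had a troponin as its closest gene, Tnnt3 with r = 0.987, the other fast gene of its chromosomal pair.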

How the data were processed

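RNA of 6 H2K myogenic progenitor lines at days 0, 1 and 2 of differentiation was sequenced as poly-A, paired-end libraries, 3 in each of 18 groups. Per the study's methods and the submitters' processing notes, reads were filtered with SOAPnuke, mapped to mm10 with HISAT2 and tested group against group in DESeq2. The counter and the versions are not given in the sources used here. The authors deposited 27 tables, 15 of a line against wildtype on the same day and 12 between days of a line. Each table gives 2 group values of normalised signal per gene and a gene length (unit: bases). The deposited signal values were not plain group means. Their average was the mean over 6 libraries of whole reads divided by size factors, and their ratio was a moderated fold change. The authors' own fold changes, p-values, adjusted p-values and up or down labels were not used. How the length was made is not given in the sources used here, and its median over the tables was taken for values per kilobase.

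Whole reads of each library were solved from these averages by lattice reduction (sympy 1.14.0) in 5 systems of 7 tables. The same wildtype reads came out of all 5 systems for 19642 of 19653 genes (99.94%). The other 11, Myog, Acta1 and Actc1 among them, were left out. The solution does not tell which GEO sample a library is, so library order within a group is arbitrary, and 0 columns of values were left without a group. Depth ran from 15476441 to 19427618 reads. Libraries of a group differed by more than sampling noise, with a chi-square per gene of 2.28 to 10.6 for the closest pair and 9.85 to 93.8 for the farthest. All 3 were counted in the tests. The chi-square does not show that they are independent, since technical replicates are among them, and the p-values treat them as if they were.

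Reads were scaled by the median of ratios and tested with limma 3.58.1 (R 4.3.3, trend, two-sided) on log2(normalised count + 1), with the libraries of the compared groups only and Benjamini-Hochberg adjustment over all genes. Genes with an adjusted p under 0.05 and a change of at least 2-fold were called. The script was tested on simulated data. Isoform shares were compared by exact permutation (scipy 1.17.1). Alternatives were other pseudocounts, thresholds, filters and scalings, voom weights, all 54 libraries in one fit, each library left out in turn, and, chosen after seeing the data, the closest pair of each group averaged. Besides the 8 members, genes were named as the 3 most like each member over the 18 groups, as the 2 largest rises and 2 largest falls called from each list in the wildtype steps and in each line at day 2, or as the check of the labels (Emd) and of cell types. A gene that this rule names for Tnnt1 is not reported here. The members and lists were chosen with earlier results of these data known. The RefSeq windows before transcript starts were matched by symbol.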

Additional observations from a re-analysis of the deposited data

Results flagged for a closer look

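The steps of a line between days were compared with the wildtype steps by limma, and 26 of these differences were called, all of them sharing the wildtype libraries. With the closest pair of libraries in each group averaged to 1 value, 10 were called. Values are differences of log2 fold changes, line minus wildtype. From day 0 to day 1 in del9599 the differences were -2.52 for Tnnc1, -1.62 for Tnnc2, -2.53 for Tnni1, -2.69 for Tnnt1, -3.05 for Tnnt2 and -2.05 for Tnnt3. From day 1 to day 2 in del9599 they were 2.24 for Tnnc1, 1.94 for Tnnc2, 2.06 for Tnni1, 1.21 for Tnni2, 2.63 for Tnnt1, 2.10 for Tnnt2 and 2.07 for Tnnt3. The day 1 libraries enter both with opposite signs.

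In Q133H from day 0 to day 1 they were -3.63 for Tnnc1, -3.74 for Tnnc2, -3.47 for Tnni1, -3.57 for Tnni2, -3.60 for Tnnt1, -3.97 for Tnnt2 and -3.64 for Tnnt3. In Q133H from day 1 to day 2 Tnni3 had -1.62, on 1 or 2 reads per wildtype library. In +EMD Tnnt2 had -1.47 from day 0 to day 1 and 1.11 from day 1 to day 2, where Tnnc1 had 1.23 and Tnnt1 1.36. In S54F Tnnt2 had -1.71 from day 0 to day 1.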

How the results depend on the processing

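No member changed direction where it was called under any alternative run. The counts of members called that moved by over 1.5 times were as follows, with the cause not tested. The shares of all genes called under these alternatives are not given here. Without the fold threshold, limma at an adjusted p under 0.05 called 2 in +EMD at day 0, 3 in S54F at day 1, 1 in EMD-/y, 3 in S54F and 5 in +EMD at day 2, and 4 in del9599 from day 0 to day 1. Of the 4 in del9599, Tnnt2 was lower (log2 -0.50) and the others higher. Among differences from the wildtype step limma called 1 in S54F and 5 in +EMD from day 1 to day 2. At an adjusted p under 0.01 with the fold threshold, the counts were 1 in del9599 at day 0, 2 in EMD-/y from day 0 to day 1 and 0 in Q133H from day 1 to day 2. For the differences they were 0 in S54F, 4 in Q133H and 0 in +EMD from day 0 to day 1, and 0 in Q133H from day 1 to day 2. With all 54 libraries in one fit, 2 members were called in Q133H at day 0, 1 in del9599 and 4 in Q133H from day 0 to day 1, and the differences from day 1 to day 2 had 0 in Q133H and 0 in +EMD. With a group mean of at least 10, +EMD at day 0 had 2, and the Q133H difference from day 1 to day 2 had 0, as Tnni3 was no longer tested. Upper-quartile scaling gave 1 in +EMD at day 2, and a pseudocount of 5 gave 0 for the same Q133H difference.

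Averaging the closest pair of libraries in each group, an alternative chosen after seeing the data, leaves 2 values a group. It gave 1 in del9599 at day 0, 0 in EMD-/y from day 0 to day 1 and 0 in Q133H from day 1 to day 2. Differences from the wildtype step fell from 26 in all to 10, where del9599 kept a count of 2, Q133H of 1, S54F of 0 and +EMD of 0 from day 0 to day 1, and Q133H of 0 and +EMD of 1 from day 1 to day 2.

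Leaving out each library in turn gave 0 to 1 members at day 0 in EMD-/y and in S54F, 1 to 4 in del9599 and 0 to 5 in Q133H. It gave 1 to 2 in S54F at day 1 and 0 to 2 in +EMD at day 2. For the steps it gave 2 to 7 in EMD-/y and 1 to 2 in del9599 from day 0 to day 1 and 0 to 7 in Q133H from day 1 to day 2. For the differences it gave 1 to 5 in S54F, 4 to 7 in Q133H and 0 to 5 in +EMD from day 0 to day 1, and 1 to 3 in Q133H from day 1 to day 2, with Tnni3 among the last. Over single members these refits kept 2125 results on their side of the thresholds, weakened 78 and strengthened 31. The 7 members called lower at day 1 in del9599 and in Q133H were 7 in every one of them.

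No paired analysis was possible because the tables carry no replicate numbers and the solved libraries cannot be tied to them. Alternatives on the ratio of the authors' group values were not run, since the test on whole reads took their place. Depth limits only Tnni3, with 0 to 8 reads a library.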

Other observations

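The length listed for a gene differed between the tables, and 99.89% of 170616 lengths were equal in tables that share the second group. Among the troponins the length of Tnnt2 was 1250 to 1298 bases (median 1297) at day 0, 1204 to 1229 at day 1 and 1191 to 1205 at day 2, so the ranges of the 3 days did not overlap. The length of Tnni2 was 942 to 1011 at day 0, 954 to 1046 at day 1 and 1020 to 1048 at day 2, with overlapping ranges. Tnnc2 and Tnni3 were listed at 705 and 925 bases on every day.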
